A study of Homo sapiens with 4 samples.

Results

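The genes described here encode proteins of the extracellular matrix other than the fibrillar collagens. They are the matricellular genes THBS1, THBS2, TNC and POSTN, the fibronectin gene FN1, the elastic fibre genes ELN, FBN1 and FBLN1, and the crosslinking enzyme genes LOX and LOXL2. They were taken by symbol from the mRNA table, in which all 10 are listed among 19610 gene symbols, with 76 transcripts in all. The level of a gene is the sum of the FPKM (fragments mapped to a transcript, scaled by its length and by the fragments of the library) of its transcripts in a library. RNA came from hFOB1.19 cells, a human fetal osteoblast line established as a clone with a temperature-sensitive SV40 large T antigen. Cells of the control library were collected on day 0 at the lower, permissive temperature, and cells undergoing mineralization were collected on days 3, 6 and 9 after a shift to the higher temperature. All libraries come from the same line, without another agent or allele. The series holds 1 library per time point, so no test between time points was possible, no value has an error, and the shift in temperature and the days of differentiation cannot be told apart in any comparison with day 0.

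Matricellular proteins are secreted proteins that bind cells, growth factors and collagen without forming the main fibres themselves. Fibronectin is assembled by cells into a fibrillar scaffold on which collagens and other proteins are laid down. Elastic fibres consist of crosslinked elastin on microfibrils of fibrillin, to which fibulins bind. Lysyl oxidases are copper-dependent enzymes that oxidise lysines of collagen and elastin, so that the chains can be crosslinked. In bone, several of these proteins, though not elastin, belong to the unmineralized matrix that osteoblasts secrete before mineral is deposited.

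Expression of FN1, THBS2 and FBLN1 was more than 2-fold higher on each of days 3, 6 and 9 than on day 0, while TNC was lower on each of these days and by more than 2-fold on days 6 and 9. FBN1 was 2-fold higher on day 3 only, THBS1 on day 9 only, and POSTN was 2-fold lower on day 3 only. LOX differed little between the 4 libraries, LOXL2 was moderately higher after day 0, and ELN was almost absent. In bulk RNA, a difference in the number of expressing cells and one in RNA per cell cannot be told apart. The limit of 2-fold stands for a log2 ratio of at least 1 or at most -1, with 1 added to each FPKM beforehand. The same rule was applied to all 12859 genes with at least 1 FPKM in any library, among them 9 of the 10 genes described here. ELN did not reach this level.

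On day 3, 4 of the 9 genes were 2-fold higher than on day 0, against 8.13% of all genes, and 1 was 2-fold lower, against 5.30%. On day 6, these were 3 genes, against 9.01%, and 1 gene, against 6.42%. On day 9, these were 4 genes, against 9.60%, and 1 gene, against 6.52%. All 3 comparisons use the same day 0 library, so they are not independent of each other. The median log2 ratio of the 9 genes to day 0 was 0.79, 0.80 and 0.53 at days 3, 6 and 9, while that of all genes was -0.08, -0.08 and -0.09. Between days 3 and 9, both at the higher temperature, 0 of the 9 passed the upper limit, against 1.39% of all genes, and 0 the lower, against 0.863%. The 9 log2 ratios of day 9 to day 3 lay between -0.85 and 0.88.

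**Figure D1:**
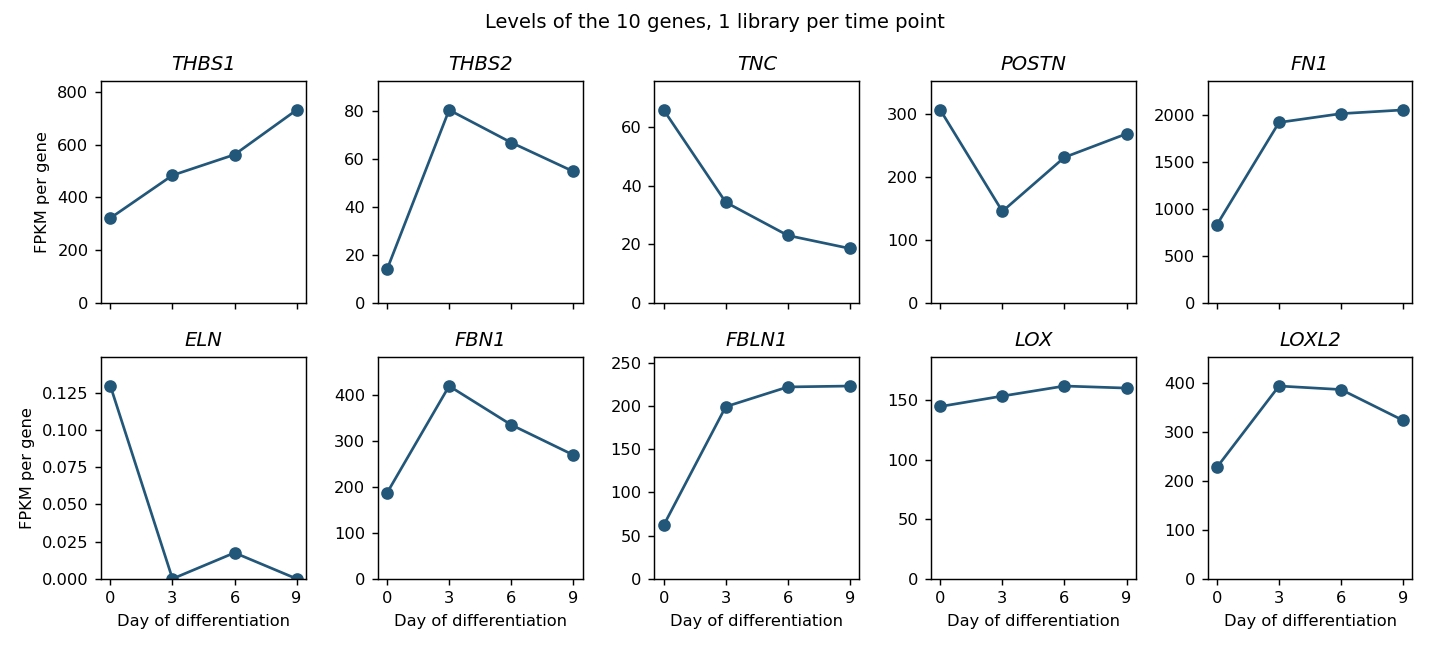
Level of each gene in FPKM (y axis, a separate scale from 0 for each gene) against the day of differentiation (x axis), with 1 point per library. FN1, THBS2 and FBLN1 lay above day 0 on every later day, TNC fell to 18.5 FPKM by day 9, POSTN was lowest on day 3 with 145 FPKM, and ELN stayed under 0.13 FPKM.

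**Figure D2:**
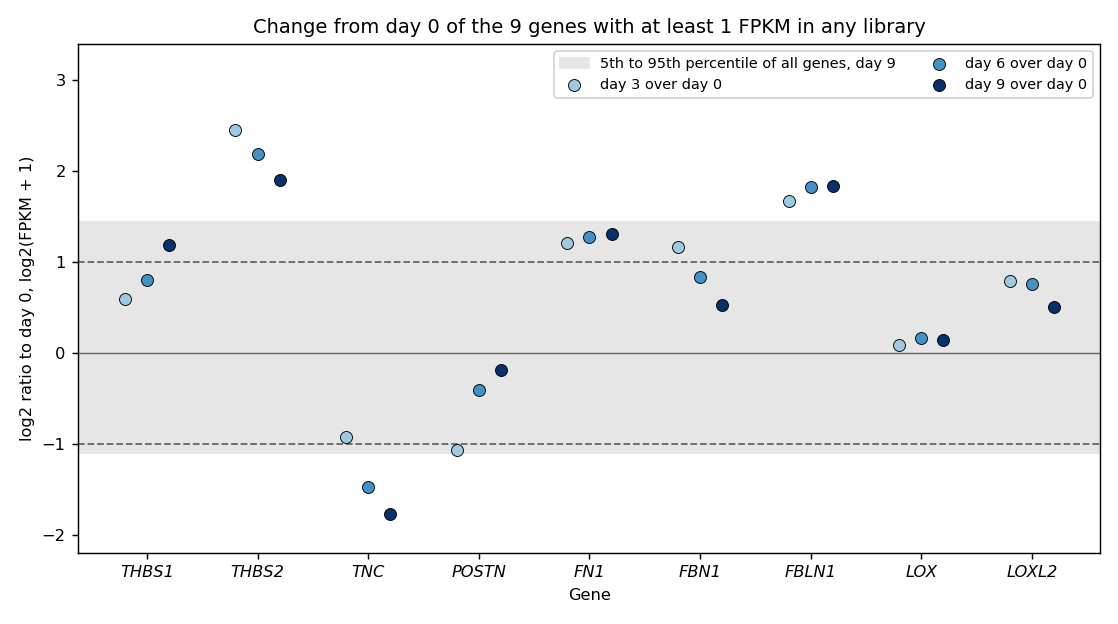
Log2 ratio of each gene to day 0 on the log2(FPKM + 1) scale (y axis) for days 3, 6 and 9 (points, light to dark), with the 2-fold limits as dashed lines and the range from the 5th to the 95th percentile of all 12859 genes on day 9, from -1.10 to 1.44, in grey. THBS2 and FBLN1 lay above this range on day 9 and TNC below it.

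The 5′ sequences of the genes past the limit on several days are shown to give their context, as taken from RefSeq on GRCh38.p14. Each window runs from 250 bases before the annotated start to 50 bases after it, 5′ to 3′ on the strand of the gene. Capitals mark matches, on either strand, to the TATA box core TATAA, the CCAAT box, the GC box GGGCGG, the cyclic AMP response element TGACGTCA and the TEAD element GGAATG. Neighbouring GC boxes overlap in FN1. The THBS2 window is chr6:169253797-169254096 (minus strand), that of FN1 chr2:215436019-215436318 (minus), that of FBLN1 chr22:45502633-45502932 (plus) and that of TNC chr9:115118108-115118407 (minus).
THBS2: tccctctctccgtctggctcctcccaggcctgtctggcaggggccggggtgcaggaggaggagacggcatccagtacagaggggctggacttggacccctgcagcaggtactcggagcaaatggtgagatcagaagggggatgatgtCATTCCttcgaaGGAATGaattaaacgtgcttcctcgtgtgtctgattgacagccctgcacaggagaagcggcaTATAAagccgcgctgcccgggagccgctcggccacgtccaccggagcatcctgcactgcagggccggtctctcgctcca
FN1: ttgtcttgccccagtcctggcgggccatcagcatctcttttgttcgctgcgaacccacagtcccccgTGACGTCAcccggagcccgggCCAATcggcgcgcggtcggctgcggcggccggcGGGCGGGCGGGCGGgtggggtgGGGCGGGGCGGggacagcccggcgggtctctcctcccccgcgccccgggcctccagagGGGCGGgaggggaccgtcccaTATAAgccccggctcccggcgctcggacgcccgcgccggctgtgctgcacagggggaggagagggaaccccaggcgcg
FBLN1: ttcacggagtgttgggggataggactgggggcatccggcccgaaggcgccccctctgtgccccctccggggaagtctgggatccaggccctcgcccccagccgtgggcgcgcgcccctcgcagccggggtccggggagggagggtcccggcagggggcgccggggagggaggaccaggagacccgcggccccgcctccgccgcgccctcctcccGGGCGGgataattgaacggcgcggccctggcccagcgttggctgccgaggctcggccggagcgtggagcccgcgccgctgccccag
TNC: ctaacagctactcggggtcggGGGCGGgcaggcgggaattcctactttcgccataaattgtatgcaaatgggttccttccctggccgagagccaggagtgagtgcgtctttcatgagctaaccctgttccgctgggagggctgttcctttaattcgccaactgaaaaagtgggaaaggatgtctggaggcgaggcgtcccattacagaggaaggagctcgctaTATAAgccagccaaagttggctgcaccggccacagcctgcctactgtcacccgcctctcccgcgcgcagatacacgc

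Windows were used for 8 of the 10 genes, the others being ELN and LOXL2. Any window of the 10 genes on chromosome 8 was left out, so a missing window does not mean that RefSeq holds none. In THBS2, FN1 and TNC a TATA box core began 29, 28 and 27 bases before the start, and POSTN had one at 29 bases as well. TATAA was found in 4 of the 8 windows and in 20.4% of all 35116 windows. The FBLN1 window had no such match. GC content was 78.0% in FBLN1, 76.7% in FN1, 70.0% in THBS1, 68.3% in FBN1, 61.7% in THBS2, 58.0% in LOX, 57.3% in TNC and 39.0% in POSTN. GGGCGG was found in 5 of the 8 windows, against 45.0% of all windows, with 6 matches in FN1. TGACGTCA was found in FN1 alone, against 1.85% of all windows. GGAATG was found in THBS1, THBS2 and FBN1, against 14.0% of all windows, and in THBS2 2 matches on opposite strands began 103 and 91 bases before the start. CCAAT was found in THBS1, FN1 and LOX, against 34.6% of all windows. These matches describe letters only, and no binding was measured.

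Thrombospondin 1, encoded by THBS1 (ENSG00000137801), is a trimeric glycoprotein that binds the receptor CD47 and can activate latent TGF-beta. THBS1 had 321 FPKM at day 0 and 484, 562 and 732 FPKM at days 3, 6 and 9. Each library was thus higher than the one before, and THBS1 was the second of the 10 genes in level in every library. Its log2 ratio to day 0 was 0.59, 0.80 and 1.18 at days 3, 6 and 9, so it passed the 2-fold limit on the last day only. By FPKM it ranked 264 among all symbols on day 0 and 105 on day 9. The transcript ENST00000260356 carried 94.0% of the THBS1 level on day 0 and 98.0% to 98.3% later. The other, ENST00000397591, was highest on day 0, with 19.5 FPKM, and had 8.30, 11.3 and 14.6 FPKM on days 3, 6 and 9.

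Thrombospondin 2, encoded by THBS2 (ENSG00000186340), is a close relative known for its part in collagen fibril assembly and for limiting angiogenesis. THBS2 had 13.9 FPKM at day 0 and 80.3, 66.7 and 54.7 FPKM at days 3, 6 and 9. Its day 0 library stood below all others, and its peak was on day 3. The level on day 3 was 5.79-fold that of day 0, and the log2 ratio to day 0 was 2.45, 2.19 and 1.90 at days 3, 6 and 9, the highest of the 9 genes on each day. From rank 6508 on day 0 it came to rank 1024 on day 3. Of its 3 transcripts, ENST00000617924 and ENST00000366787 carried the whole level, with 8.01 and 5.87 FPKM on day 0 and 42.4 and 37.9 FPKM on day 3. The share of ENST00000617924 was 57.7% on day 0 and 52.8% to 53.4% later, so both transcripts followed the same course.

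Tenascin C, encoded by TNC (ENSG00000041982), is a hexameric protein of developing and healing tissues that modulates adhesion to fibronectin. TNC had 65.8 FPKM at day 0 and 34.3, 23.0 and 18.5 FPKM at days 3, 6 and 9. It was the only gene of the 9 that was lower in each library than in the one before. Relative to day 0 its log2 ratio was -0.92 at day 3, within the limit, and -1.48 and -1.78 at days 6 and 9. The day 0 level was 3.55-fold that of day 9.

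Of the 9 TNC transcripts listed, 8 were above 0 in any library and 4 carried at least 10% of the level in any library. ENST00000350763 had 29.4 FPKM on day 0 and 7.13 on day 9, ENST00000341037 had 17.5 and 5.12, and ENST00000544972 had 7.66 and 1.63. A different course was that of ENST00000537320, with 5.00, 10.7, 7.17 and 4.17 FPKM from day 0 to day 9, so that its share of the TNC level was 7.59% on day 0, 31.3% on day 3 and 22.5% on day 9. Without this transcript, a sum made after the values were seen, the log2 ratio of TNC to day 0 was -1.33 on day 3, past the limit, and -2.01 on day 9. ENST00000542877 was present at 1.80 FPKM in the day 0 library only, the later ones listing it at 0.

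Periostin, encoded by POSTN (ENSG00000133110), is a protein with fasciclin domains that is abundant in periosteum and binds collagen and fibronectin. POSTN had 306 FPKM at day 0 and 145, 231 and 268 FPKM at days 3, 6 and 9. It was thus lowest on day 3 and closer to its initial level in each later library. Relative to day 0, the log2 ratio was -1.07, -0.41 and -0.19 at days 3, 6 and 9. The value of day 3 lay just past the limit, and it was -0.98 and -0.88 with the libraries rescaled to the same median or the same total FPKM, which is within the limit. From day 3 to day 9 the log2 ratio was 0.88, the highest of the 9 genes.

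Among the 6 POSTN transcripts, 3 carried at least 10% of the level in any library. ENST00000541179 carried between 50.1% and 55.4% in every library, with 163, 80.5, 116 and 141 FPKM from day 0 to day 9. ENST00000379743 had 87.6 FPKM on day 0 and 10.6, 26.1 and 31.0 FPKM later, a log2 ratio of -2.94 on day 3 and -1.47 on day 9. ENST00000379742 had 50.5 FPKM at day 0 and 47.7, 77.5 and 81.9 FPKM at days 3, 6 and 9. The share of ENST00000379743 was therefore 28.6% on day 0 and 7.29% to 11.5% later, while that of ENST00000379742 was 16.5% and 30.5% to 33.6%. Without ENST00000379743, a sum made after the values were seen, POSTN had a log2 ratio of -0.70 on day 3 and 0.12 on day 9, both within the limit.

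Fibronectin, encoded by FN1 (ENSG00000115414), is a large dimeric glycoprotein that binds integrins and collagens. FN1 had 831 FPKM at day 0 and 1920, 2014 and 2053 FPKM at days 3, 6 and 9. The 3 later libraries were close to each other and all above day 0. Against day 0 its log2 ratios were 1.21, 1.28 and 1.30, and that of day 9 to day 3 was 0.10. FN1 had the highest level of the 10 genes in every library, with 38.5% of their summed FPKM on day 0 and 50.0% to 50.3% later. Among all symbols it ranked 115 on day 0 and 25 or 26 on the later days.

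The FN1 level is spread over 13 transcripts, of which 10 were above 0 in any library and 9 reached 1 FPKM. FN1 transcripts differ by alternative splicing of domains, and the table does not say which domains each of them holds. ENST00000443816 had 175 FPKM on day 0 and 604, 678 and 701 FPKM later, so that its share of the FN1 level was 21.1% on day 0 and 34.2% on day 9. ENST00000446046 had 207 FPKM on day 0 and 496 on day 9, at a share of 24.1% to 25.9% in every library. ENST00000356005 had 85.3 FPKM on day 0 and 211 on day 9. Of the 9 transcripts, 8 had a higher value on day 9 than on day 0, and the exception was ENST00000323926. It had 179 FPKM at day 0 and 152, 124 and 101 FPKM at days 3, 6 and 9, and its share was 21.6% on day 0 and 4.90% on day 9. This is a log2 ratio of -0.82 for its FPKM at day 9, within the limit. The sum of the other FN1 transcripts, made after the values were seen, was 652 FPKM on day 0 and 1952 on day 9, with a log2 ratio of 1.58.

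**Figure D3:**
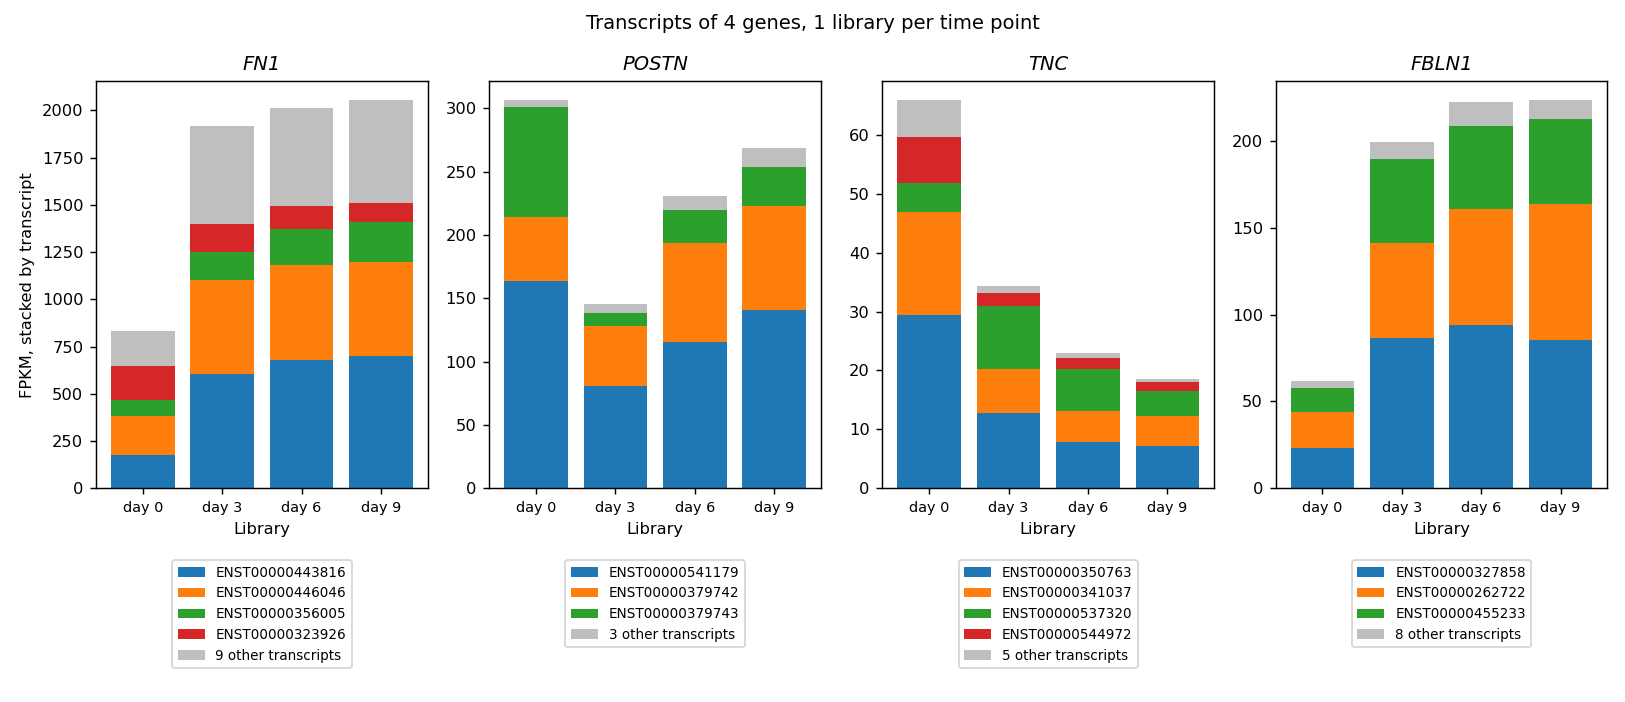
FPKM of FN1, POSTN, TNC and FBLN1 (y axis, from 0, a separate scale for each gene) in the 4 libraries (x axis), stacked by transcript, with transcripts that carry under 10% of the level in every library in grey. The share of ENST00000323926 in FN1 and of ENST00000379743 in POSTN was smaller after day 0, and that of ENST00000537320 in TNC was larger.

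Values per transcript rest on an estimate that divides reads between transcripts with shared exons, and are less certain than the sums per gene. The error of this division is not given in the table.

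Elastin, encoded by ELN (ENSG00000049540), is the core protein of elastic fibres, secreted as tropoelastin. The ELN level was 0.130 FPKM at day 0 and 0.0175 FPKM at day 6, and the other libraries list it at 0. Of the 21 ELN transcripts, 2 had a value above 0 in any library, mainly ENST00000380575 on day 0 and ENST00000380553 on day 6. No fold is given, since the values are far below the 1 FPKM used as a minimum. Of the genes of the fibrillin microfibril, FBN1, FBN2 and MFAP2 were by contrast well expressed in the same libraries. FBN3 was under 1 FPKM in every library, and MFAP4 and MFAP5 reached at most 3.41 and 4.44 FPKM.

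Fibrillin 1, encoded by FBN1 (ENSG00000166147), is the main protein of these microfibrils. FBN1 had 187 FPKM at day 0 and 420, 335 and 270 FPKM at days 3, 6 and 9. Its peak was on day 3, and each later library was lower than the one before but above day 0. Its log2 ratio to day 0 was 1.16 on day 3, past the limit, 0.84 on day 6 and 0.53 on day 9. With the libraries rescaled to the same total FPKM, it was 1.02 on day 6, also past the limit. The transcript ENST00000316623 carried 95.6% to 96.7% of the level in every library.

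Fibulin 1, encoded by FBLN1 (ENSG00000077942), is a calcium-binding protein found on elastic fibres and in basement membranes, which also binds fibronectin. FBLN1 had 62.0 FPKM at day 0 and 199, 222 and 223 FPKM at days 3, 6 and 9. All 3 later libraries were similar and lay above the day 0 library. The log2 ratio of FBLN1 was 1.67, 1.82 and 1.83 at days 3, 6 and 9, the second highest of the 9 genes on each day. Its rank among all symbols was 1626 on day 0 and between 310 and 350 later.

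The 11 FBLN1 transcripts were all above 0 in at least 1 library, and 3 of them carried at least 10% of the level. ENST00000327858 had 23.2 FPKM on day 0 and 86.3, 93.9 and 85.3 later, ENST00000262722 had 20.9 and then 55.1, 66.9 and 78.5, and ENST00000455233 had 13.5 and then 48.2, 47.9 and 49.1. All 3 were thus more than 2-fold higher on each later day. ENST00000262722 was higher in each library than in the one before, with a share of 27.7% on day 3 and 35.1% on day 9. ENST00000327858 had shares of 43.3% and 38.2% on the same days.

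Lysyl oxidase, encoded by LOX (ENSG00000113083), is the founding member of the crosslinking enzyme family. LOX had 145 FPKM at day 0 and 153, 162 and 160 FPKM at days 3, 6 and 9, all from 1 transcript, ENST00000231004. Against day 0 its log2 ratios were 0.08, 0.16 and 0.15 over the later days. Among the 8597 genes with at least 10 FPKM in any library, 749 had log2 ratios within 0.2 of those of LOX on all 3 days, so a course of this kind was common.

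Lysyl oxidase-like 2, encoded by LOXL2 (ENSG00000134013), is a relative of LOX with scavenger receptor domains that is known to act on basement membrane collagen. LOXL2 had 227 FPKM at day 0 and 393, 386 and 323 FPKM at days 3, 6 and 9. All later libraries were above day 0, and none by the 2-fold limit. The log2 ratio to day 0 was 0.79, 0.76 and 0.50 at days 3, 6 and 9. The transcript ENST00000389131 carried 91.2% of the level on day 0 and at least 93.8% later. Another, ENST00000520349, had 13.2 FPKM on day 0 and 3.17, 7.99 and 6.77 FPKM later.

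In the order of their levels on day 0, the genes were FN1, THBS1, POSTN, LOXL2, FBN1, LOX, TNC, FBLN1, THBS2 and ELN. On day 9 the order was FN1, THBS1, LOXL2, FBN1, POSTN, FBLN1, LOX, THBS2, TNC and ELN. FBLN1 thus passed LOX and TNC, and THBS2 passed TNC. Whether neighbours in these orders differ cannot be said without replicates, as on day 9 for FBN1 and POSTN, with 270 and 268 FPKM. Together the 10 genes made up 0.349% of the summed FPKM of the table on day 0 and 0.712%, 0.733% and 0.720% on days 3, 6 and 9.

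The genes with the most similar course were found by the largest difference in log2 ratio to day 0 over the 3 later days, among the same 8597 genes. Nearest to FN1 was HSPG2, which encodes the basement membrane proteoglycan perlecan, with a largest difference of 0.02 and levels of 50.8, 120, 124 and 127 FPKM. GOLT1B and AFF3 followed at 0.05 and 0.06, and 90 genes lay within 0.2 of FN1 on all 3 days. Nearest to FBLN1 were BMPER, a secreted regulator of BMP signalling, at 0.06, PNRC1 at 0.07 and TNFAIP8 at 0.08, with 26 genes within 0.2. For FBN1 these were LZTS1 at 0.10, and the proteoglycan gene BGN and C21orf58 at 0.11 each, with 28 genes within 0.2. BGN had 65.3, 137, 117 and 99.7 FPKM from day 0 to day 9.

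For THBS1, the nearest genes were NAGK at 0.05, the matrix protein gene ECM1 at 0.06 and PSAP at 0.08, and 55 genes lay within 0.2. ECM1 had 84.2, 122, 149 and 190 FPKM. For THBS2, they were ABCA7 at 0.13, GALNT5 at 0.14 and the chaperone gene CLU at 0.16, and 8 genes lay within 0.2. For TNC, they were IFT46 at 0.04, the splicing factor gene SFPQ at 0.09 and PTMS at 0.15, with 11 genes within 0.2. For POSTN, 6 genes lay within 0.2, the nearest being CYSTM1 at 0.09, followed by GARS and C6orf136 at 0.15 each. LOX was nearest to ZNF444, WDR41 and ST7, and LOXL2 to NR3C1, CAV2 and NSF, with 145 genes within 0.2 of LOXL2. Likeness over 4 libraries is a description and says nothing of shared control.

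Other genes of the same systems were taken from 4 lists, whose counts stand beside 8.13%, 9.01% and 9.60% of all genes 2-fold higher than day 0 on days 3, 6 and 9, and 5.30%, 6.42% and 6.52% lower. Of 17 other matricellular genes, 9 reached 1 FPKM, and 1, 2 and 3 of them were 2-fold higher than day 0 on days 3, 6 and 9, while 0, 1 and 1 were lower. Their median log2 ratio was 0.12, 0.28 and 0.20. SMOC1, which encodes a calcium-binding matrix protein, had 0.208 FPKM on day 0 and 14.1, 15.6 and 15.0 FPKM later. SPP1, the osteopontin gene, had 0.794, 1.89, 5.14 and 7.45 FPKM, and was also 2-fold higher on day 9 than on day 3. CTGF, a matricellular gene of the CCN family, had 310, 377, 479 and 698 FPKM, a log2 ratio of 1.17 on day 9, and CYR61 of the same family had 445, 483, 549 and 668 FPKM, within the limit. TNXB, a tenascin gene that shares sequence with a pseudogene and is uncertain for that reason, had 3.95 FPKM on day 0 and 1.12 on day 9. The most abundant gene of the list on day 0 was SPARC, the osteonectin gene, with 1113 FPKM on day 0 and 1275 on day 9.

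Of 17 other elastic fibre and microfibril genes, 16 reached 1 FPKM. On days 3, 6 and 9, 8, 7 and 7 of these were 2-fold higher than on day 0, and 0 were lower on any of these days. Their median log2 ratio was 0.83, 0.64 and 0.82. FBN2, a second fibrillin gene and the most abundant of the list on day 0, had 64.4, 157, 149 and 149 FPKM. The fibulin family genes FBLN2 and EFEMP1 had 20.4 and 34.6 FPKM on day 0 and 80.8 and 164 FPKM on day 3, and like FBN1 they were lower on day 9, at 52.3 and 114 FPKM. FBLN7 had 1.24 FPKM on day 0 and 4.50 on day 3, and ADAMTSL4, which encodes a fibrillin-binding protein, had 2.42 and 5.89.

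Among the latent TGF-beta binding proteins, which attach to fibrillin, LTBP1 had 12.0, 25.7, 48.6 and 72.6 FPKM, higher in each library than in the one before. LTBP2 had 3.88 FPKM on day 0 and 16.4 to 18.1 later, and LTBP4 had 32.1 FPKM and 65.6 to 79.4. MFAP5, a microfibril gene, had 0.921, 0.247, 1.52 and 4.44 FPKM, past the upper limit on day 9. LTBP1 and MFAP5 were also 2-fold higher on day 9 than on day 3. The elastic fibre genes FBLN5 and EFEMP2 stayed within the limit on all days, as did MFAP2, MFAP4, EMILIN1, EMILIN2 and LTBP3.

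All of the 11 other crosslinking genes reached 1 FPKM, and 2, 4 and 4 of them were 2-fold higher than day 0 on days 3, 6 and 9, while 0 were lower on any of these days. Their median log2 ratio was 0.24, 0.02 and -0.11. PLOD2, the lysyl hydroxylase of collagen telopeptides, had 82.0, 262, 258 and 285 FPKM. PLOD1, a lysyl hydroxylase of the collagen helix, had 69.0, 138, 145 and 152 FPKM and passed the limit on days 6 and 9. TGM2, a transglutaminase that crosslinks fibronectin among other proteins, had 7.35, 13.0, 26.1 and 40.5 FPKM, a log2 ratio of 2.31 on day 9 to day 0 and of 1.57 on day 9 to day 3. LOXL4 had 0.447 FPKM on day 0 and 2.02 to 3.44 later, while LOXL1, the most abundant of the list on day 0, had 103, 158, 122 and 91.1 FPKM and stayed within the limit.

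Of 10 receptor genes, 8 reached 1 FPKM, and 0, 1 and 1 were 2-fold higher on days 3, 6 and 9, against 8.13%, 9.01% and 9.60% of all genes, while 0 were lower on any of these days. Their median log2 ratio was 0.08, 0.31 and 0.43. The gene past the limit was CD47, the thrombospondin receptor, with 19.4, 33.1, 41.8 and 42.1 FPKM. ITGA5, a subunit of the classical fibronectin receptor, had 100.3, 89.4, 93.1 and 93.9 FPKM, and its partner ITGB1 had 442, 685, 805 and 837 FPKM, a log2 ratio of 0.92 on day 9. ANXA2, a receptor for tenascin C and the most abundant of the list on day 0, had 1319 FPKM on day 0 and 877 to 970 later.

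**Figure D4:**
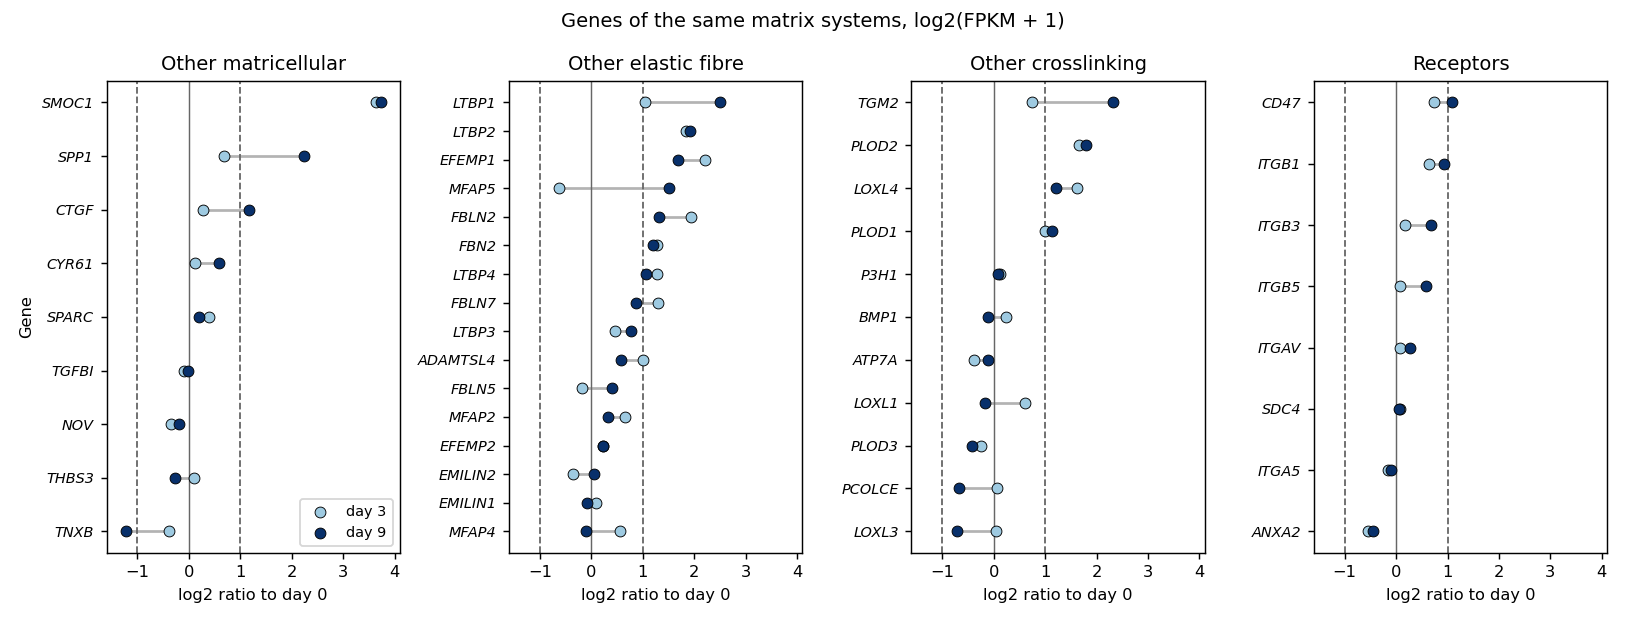
Log2 ratio to day 0 on the log2(FPKM + 1) scale (x axis) on day 3 (light) and day 9 (dark) for genes of the 4 lists with at least 1 FPKM in any library (y axis), with the 2-fold limits as dashed lines. No elastic fibre, crosslinking or receptor gene lay below the lower limit, and TNXB did on day 9.

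Of 10 osteoblast markers, 6 reached 1 FPKM. On days 3, 6 and 9, 4, 4 and 3 of these were 2-fold higher than on day 0, against 8.13%, 9.01% and 9.60% of all genes. On the same days 0 were lower, against 5.30%, 6.42% and 6.52%. DLX5 and PTH1R were among the 6 and stayed within the limit on all 3 days. The collagen gene COL1A1 had 777, 1974, 1587 and 1146 FPKM and was within the limit on day 9, with a log2 ratio of 0.56. COL1A2 had 125, 856, 753 and 561 FPKM, RUNX2 had 7.37, 26.2, 19.3 and 18.2, and the alkaline phosphatase gene ALPL had 0.294, 4.32, 4.35 and 4.18, each past the limit on all 3 days. SP7, BGLAP, IBSP and BMP2 were under 1 FPKM in every library. BGLAP, the osteocalcin gene and a marker of mature osteoblasts, had 0, 0.781, 0.426 and 0.793 FPKM from day 0 to day 9. Markers of other cell types were mostly low, with PTPRC, CD3E, PECAM1, CDH5, ADIPOQ, MYH11, DES, EPCAM and CDH1 under 1 FPKM in every library. Others were expressed throughout. The smooth muscle marker CNN1 had 42.0 to 50.6 FPKM and the endothelial marker TEK 9.97 to 16.6 FPKM, both within the limit on all days. Some markers of other cell types differed between day 0 and the later libraries, in both directions. Of 5 smooth muscle markers, 3 reached 1 FPKM, and their list summed to 906 FPKM on day 0 and 345 to 408 later, mainly through TAGLN, with 839 FPKM on day 0 and 126 on day 3, while ACTA2 had 20.4 and 168. Of 5 leukocyte markers, 2 reached 1 FPKM, and the list summed to 17.4 FPKM on day 0 and 39.0 to 91.8 later, almost all from CD68. Of 5 epithelial markers, 2 reached 1 FPKM, and the list summed to 396 FPKM on day 0 and 183 to 218 later, almost all from KRT18. Of 5 cartilage markers, 3 reached 1 FPKM, and the list summed to 19.2 FPKM on day 0 and 14.6 to 17.7 later, mostly from MATN3, with 16.9 FPKM on day 0 and 8.21 to 11.7 later. SOX9, the regulator of cartilage differentiation, was past the upper limit on all 3 days, with 1.21, 4.48, 5.08 and 5.32 FPKM, while ACAN and COL2A1 were under 1 FPKM in every library. Of 5 endothelial markers, 2 reached 1 FPKM, and the list summed to 10.6 FPKM on day 0 and 14.8 to 18.2 later. Of 5 fat cell markers, 1 reached 1 FPKM, CFD, with 0.651 FPKM on day 0 and 3.21 to 4.20 later, past the upper limit on all 3 days, and the list summed to 1.51 FPKM and 3.73 to 4.46. The part of these markers in the results was not tested.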

How the data were processed

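RNA of hFOB1.19 cells was sequenced on days 0, 3, 6 and 9, with 1 library per time point. The authors deposited FPKM per transcript for 79798 protein-coding transcripts. Per the labels and the methods, ribosomal RNA was removed, the mRNA libraries were treated with RNase R, an exonuclease that degrades linear RNA, and reads were aligned with TopHat. Per the labels, the circRNA libraries were made without RNase R. Since RNase R is commonly used to enrich circRNA, the labels may have these exchanged, which could not be settled from the sources used here, and the part of the treatment in the levels was not tested. The submitters' processing notes list Bowtie 0.12.2 and mm8, a mouse build, while the table holds human Ensembl identifiers. The program behind the FPKM is not given in the sources used here, and the reads behind each value are unknown, since FPKM carry no read counts. The supplement of the study gives read totals per sample, which are not used here and do not give the counts per transcript.

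FPKM were summed per symbol. No symbol described here covers more than 1 gene ID. Log2 ratios were taken after 1 was added, a minimum of 1 FPKM in any library was required, and the limit was a log2 ratio of 1 or -1, which understates changes of genes with low FPKM. With 1 library per time point no p-value is given. The members and lists were chosen with earlier results of these data known. Named were all members, transcripts with at least 10% of a member's level in any library, the 3 genes with the most similar course, and genes of the matricellular, elastic fibre, crosslinking and receptor lists past the limit in any comparison or highest on day 0. Other genes and transcripts named were chosen after their values were seen. Alternatives were another pseudocount, minimum, scaling or limit, and the highest transcript only. Promoter windows came from RefSeq (GRCh38.p14). Of several windows of a gene, the most upstream was used. The 30 columns of values per sample in the other files were not used, since circRNA identifiers there carry no gene, no lncRNA is named after a member, and the rest repeat the libraries beside the authors' fold changes, p-values and q-values. Python 3.11.15, numpy 2.4.6, pandas 2.3.3 and matplotlib 3.10.9 were used.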

Additional observations from a re-analysis of the deposited data

How the results depend on the processing

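No paired analysis was possible because the design gives 1 library to each day, and no library could be left out for the same reason. Of 72 counts of genes past the limit under an alternative, 59 were within 1.5 times the main count or equal to it at 0. This number does not measure stability. The alternative minima could not change a count, since the 9 genes all reached 10 FPKM in some library and ELN was within the limit. Most counts for day 9 relative to day 3 were 0 under the main rule and the alternative alike. A 4-fold limit is stricter by construction. Relative to day 0, it left 1 higher gene (THBS2) at days 3 and 6, against 1.66% and 2.01% of all genes. The count of higher genes at day 9 was 0, against 2.34%. Lower genes numbered 0 at each of these times, against 0.770%, 0.925% and 1.03%. With shares this small, counts of 0 among 9 genes say little about them. The 1.5-fold limit gave 6 higher genes on day 6, against 18.0% of all genes, and 2 lower ones (POSTN and TNC) on day 3, against 18.5%. On day 9 relative to day 3, it gave 2 higher (POSTN and THBS1), against 4.92%, and 2 lower (TNC and FBN1), against 5.00%. POSTN passed the lower limit on day 3 neither with the same total nor with the same median FPKM. In both cases 0 of the 9 genes were then lower, against 3.53% and 4.16% of all genes. With the highest transcript only, 2 (POSTN and TNC) were lower on day 3, against 6.08%. Rescaling to the same total moved the median log2 ratio of all genes on day 3 from -0.08 to 0.12, and moved the 9 genes by at most 0.23. Of 200 log2 ratios of single genes under alternatives, 2 changed sign, both of them within the limit. The cause of these moves was not tested. Without replicates or read counts per gene, the spread and the counting error of each value are unknown.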

Other observations

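Ratios of FPKM between genes, most of them of the same family, also differed between the libraries. THBS1 had 23.2 times the level of THBS2 on day 0, 6.02 times on day 3, 8.42 times on day 6 and 13.4 times on day 9. LOXL2 had 1.57 times the level of LOX on day 0 and 2.56, 2.38 and 2.02 times later. The 5 genes of the LOX family summed to 510 FPKM on day 0 and 743, 694 and 597 FPKM later, with 44.6% from LOXL2 on day 0 and 52.9% to 55.6% later, and 28.4% and 20.7% to 26.8% from LOX. Of the FBN1 and FBN2 FPKM together, FBN2 made up 25.6%, 27.3%, 30.8% and 35.6% from day 0 to day 9. FN1 had 12.6 times the level of TNC on day 0 and 111 times on day 9. Such ratios within a library do not depend on its scaling, but no replicate error can be given for them.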
